A study of Mus musculus with 9 samples.

Results

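Glucocorticoid-responsive genes were followed through a set of mouse knee joint libraries. The set held 9 genes chosen by name, with earlier results of these data known: Fkbp5, Tsc22d3, Zbtb16, Sgk1, Klf9, Cebpd, Mt1, Mt2 and Nr3c1. Each matched 1 of the 53379 gene IDs of the count tables, and 8 of the 9 passed the filter on low counts that left 17478 genes for testing. Mt2 did not pass.

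RNA came from mouse knee joints in 3 groups of 3 libraries. PC2 joints had the anterior cruciate ligament cut (ACLT, a surgical model of osteoarthritis) in male C57BL/6 mice at 8 weeks of age and were injected 1 week later with a lentivirus expressing PC2. Luc joints had the same operation and a lentivirus expressing Luc at the same time, and both kinds were collected 8 weeks after the injection. Non surgery joints were unoperated; neither their strain, sex and age nor any injection is stated for them in the labels. Per the labels' protocols, RNA within a group was pooled and run as 3 technical repeats, so each group was 1 pool, and every p-value below was set against technical spread with no difference between mice in it. The labels state neither how many mice made a pool nor the time of day of collection.

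Glucocorticoids are adrenal steroid hormones that enter cells and bind the glucocorticoid receptor, the product of Nr3c1. The bound receptor leaves its chaperone complex, moves to the nucleus and binds short DNA elements, from which it raises the transcription of genes such as Fkbp5, Tsc22d3, Zbtb16, Sgk1, Klf9 and the metallothioneins. In muscle these hormones favour protein breakdown, in bone they restrain formation, and in inflamed tissue they lower cytokine output.

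Libraries held 17835989 to 19004316 counts in genes, and every marker of cartilage, bone, muscle, fat, neutrophils, macrophages, erythroid cells and synovial fibroblasts listed for the joint was detected in every group. Summed over 6 muscle markers, the level was 21640 to 21850 CPM (counts scaled to a common library total) in PC2, 18590 to 19040 CPM in Luc and 39970 to 41190 CPM in Non surgery libraries. The 6 fibroblast and synovium markers summed to 25940 to 26380 CPM in PC2, 23980 to 24520 CPM in Luc and 6061 to 6654 CPM in Non surgery libraries. In whole joints, fewer cells of a type and less RNA per cell cannot be told apart.

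The comparison of Luc with Non surgery joints addressed how the operated joint with control virus differed from the unoperated joint. The classical receptor targets Zbtb16, Fkbp5 and Tsc22d3 were lower in Luc libraries, by 7.26-fold, 4.72-fold and 2.61-fold. Klf9, Mt1 and Cebpd were lower by 1.86-fold, 1.57-fold and 1.33-fold, and the receptor gene Nr3c1 was 1.2-fold higher. Of the 8 tested genes, 7 passed an adjusted p of 0.05 in edgeR's quasi-likelihood test, 6 of them lower and 1 higher. Of all genes tested 58.8% passed, with 27.7% lower and 31.1% higher. The Luc and Non surgery libraries did not overlap for 7 of the 8 genes, beside 62.9% of all genes. A change of at least 2-fold was called in 3 of the 8, all of them falls, beside 15.7% of all genes in either direction and 6.32% lower. The median log2 fold change of the 8 genes was -0.77, beside 0.025 over all genes.

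Fkbp5 (chr17:28399094-28517527, - strand, GRCm38) encodes an immunophilin that binds the receptor complex and lowers its hormone affinity, and its own transcription rises with the hormone. It had 43.2, 45.1 and 45.8 CPM in the 3 Luc libraries, against 213, 207 and 213 CPM in the 3 Non surgery libraries. The groups lay far apart with little spread within either. The log2 fold change was -2.24 ± 0.048 (SE, adjusted p = 4.16e-16), and 0.75% of tested genes had a lower one.

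Tsc22d3 (chrX:140539528-140600659, - strand) encodes GILZ, a leucine zipper protein that mediates part of the anti-inflammatory action of glucocorticoids. Its level was 127, 129 and 125 CPM in Luc libraries, against 329, 333 and 331 CPM in Non surgery libraries. All Luc libraries were below all Non surgery libraries, and the log2 fold change was -1.38 ± 0.032 (SE, adjusted p = 9.93e-16). The gene has 3 start sites in RefSeq, and counts per gene do not separate its isoforms.

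Zbtb16 (chr9:48654297-48836222, - strand) encodes PLZF, a zinc finger transcription factor. It had 15.6, 16.4 and 21.4 CPM in Luc libraries, against 123, 137 and 127 CPM in Non surgery libraries. This was the largest difference among the 8 tested genes, with a log2 difference of -2.86 ± 0.084 (SE, adjusted p = 2.05e-14), and 0.378% of tested genes had a lower one. Luc replicate 3 was the highest of the Luc libraries and still far below the lowest Non surgery library.

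**Figure D1:**
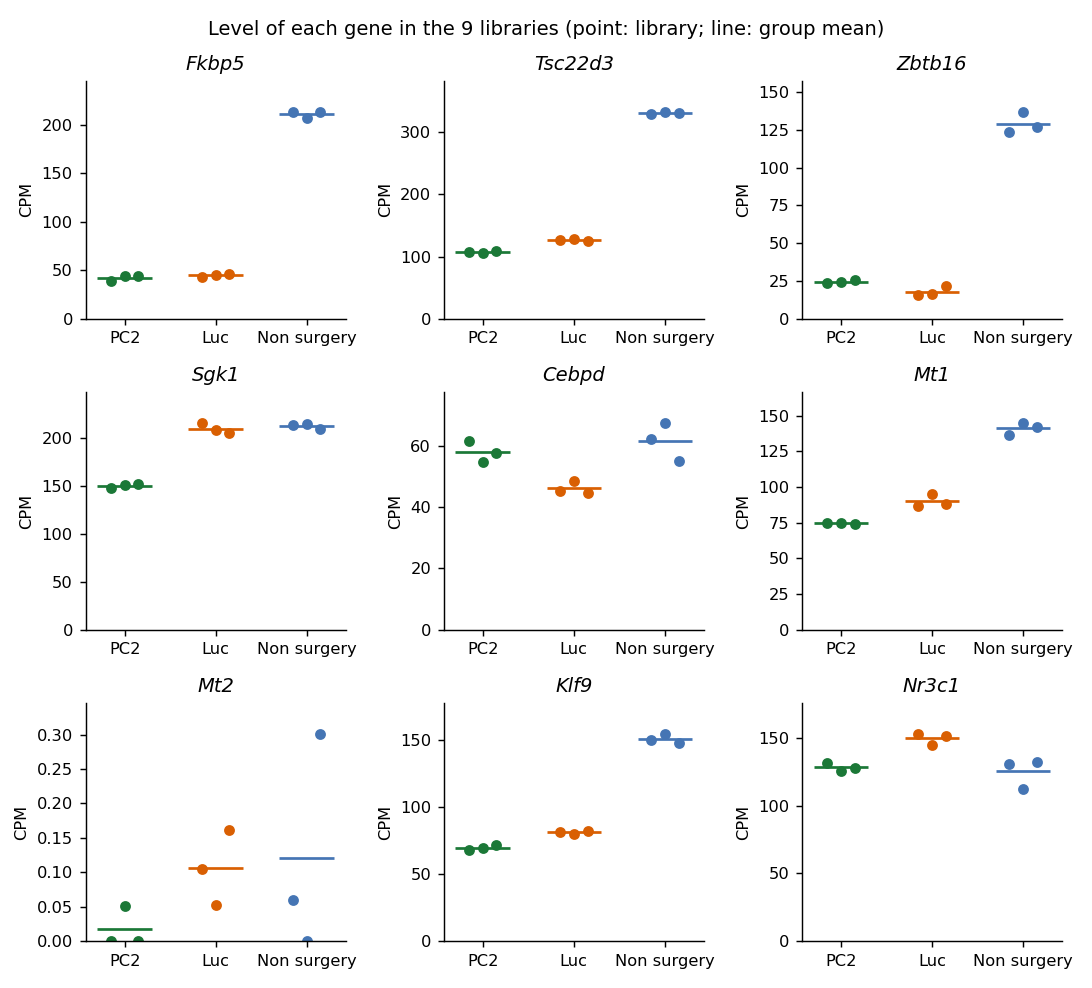
Level of each gene in CPM (vertical axes from 0) in the 3 libraries of the PC2, Luc and Non surgery groups. Points are libraries and lines are group means; Fkbp5, Tsc22d3, Zbtb16, Klf9 and Mt1 are lower in all PC2 and Luc libraries than in any Non surgery library, Sgk1 is lower in PC2 libraries only, and Mt2 stays at or under 0.3 CPM.

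Klf9 (chr19:23141226-23168134, + strand) encodes a zinc finger factor of the Krüppel-like family. It had 81.1, 79.9 and 82.1 CPM in Luc libraries, against 149.9, 154 and 148 CPM in Non surgery libraries. The groups did not overlap, and the log2 fold change was -0.90 ± 0.037 (SE, adjusted p = 2.1e-12).

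Cebpd (chr16:15887286-15891031, + strand) encodes C/EBP-delta, a transcription factor that inflammatory cytokines also induce. Its level was 45.3, 48.6 and 44.6 CPM in Luc libraries, against 62.3, 67.3 and 55.1 CPM in Non surgery libraries. The groups did not overlap although the Non surgery libraries spread widely, and the log2 fold change was -0.41 ± 0.067 (SE, adjusted p = 4.7e-05). About 15% of its exon bases are shared with Spidr on the opposite strand, and no source used here states whether the counting was by strand.

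Sgk1 (chr10:21882184-21999903, + strand) encodes a serine/threonine kinase that regulates ion channels and cell survival, and its transcription answers to glucocorticoids, mineralocorticoids and cell volume. It had 216, 209 and 205 CPM in Luc libraries, against 214.5, 214.6 and 209.7 CPM in Non surgery libraries. The groups overlapped, and the log2 fold change was -0.019 ± 0.033 (SE, adjusted p = 0.646). Scaling by library size only gave 0.14 (adjusted p = 0.00123). That scaling moved the median of all genes to 0.185, beside 0.025 with the trimmed-mean (TMM) scaling used throughout. It called 7754 genes higher and 3304 lower, where TMM called 5431 higher and 4848 lower.

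Sgk1 was the only searched gene of the set whose start site windows held a full glucocorticoid response element, read as AGAACA, any 3 bases and TGTTCT. Windows of 250 bases before to 50 bases after each RefSeq start (GRCm38.p6) were searched on both strands, and 6 of the 9 genes had a window that was searched: Fkbp5, Tsc22d3, Sgk1, Klf9, Mt1 and Mt2. The element was found in 3 of 32817 windows of all genes (0.00914%). In Sgk1, which has 6 start sites, it lay at chr10:21993701-21993715 (+ strand), at position -189 from the start site of its own window and -965 from the last start site of the gene. The window is shown with the element in capitals because it was the only searched window of the set that held a match. Sgk1 also had the most windows to search, beside 3 for Tsc22d3 and 1 for each other searched gene. A match describes letters and says nothing about receptor binding in these joints.
Sgk1 chr10:21993640-21993939 (+): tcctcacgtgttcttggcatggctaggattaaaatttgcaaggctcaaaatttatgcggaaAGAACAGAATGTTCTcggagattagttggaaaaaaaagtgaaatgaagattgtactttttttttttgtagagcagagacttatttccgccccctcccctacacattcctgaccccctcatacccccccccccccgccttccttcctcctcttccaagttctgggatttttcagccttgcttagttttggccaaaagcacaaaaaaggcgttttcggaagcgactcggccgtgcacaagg

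Mt1 (chr8:94179082-94180327, + strand) and its neighbour Mt2 (chr8:94172664-94173568, + strand) encode metallothioneins, small cysteine-rich proteins that bind zinc and copper and answer to metals, glucocorticoids and inflammatory cytokines. Mt1 had 86.5, 95.1 and 88.5 CPM in Luc libraries, against 136, 145 and 142 CPM in Non surgery libraries. All Luc libraries were below all Non surgery libraries, and the log2 fold change was -0.65 ± 0.042 (SE, adjusted p = 7.35e-10). Mt2 had 0, 1 and 0 counts in PC2 libraries, 2, 1 and 3 counts in Luc libraries and 1, 0 and 5 counts in Non surgery libraries. These counts are too few for a comparison. Of the exon bases of Mt2, 73.5% are shared with Gm45774 on the opposite strand, and reads there are left unassigned when counting ignores strand. Whether this left the Mt2 counts so low was not tested.

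The coding sequences of the first annotated transcript of each gene (GENCODE M21) are both 186 bases long and identical at 148 positions (79.6%), with a longest shared run of 20 bases. They are shown to compare the paralogs where they code for protein; capitals mark the 38 positions where they differ. The other annotated exon bases, which make up most of the exon length of both genes merged over transcripts (1246 and 588 bases), were not compared.
Mt1: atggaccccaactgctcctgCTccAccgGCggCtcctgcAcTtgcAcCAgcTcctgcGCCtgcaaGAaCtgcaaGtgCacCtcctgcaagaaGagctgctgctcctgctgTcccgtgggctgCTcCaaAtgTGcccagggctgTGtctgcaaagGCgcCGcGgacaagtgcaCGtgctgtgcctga
Mt2: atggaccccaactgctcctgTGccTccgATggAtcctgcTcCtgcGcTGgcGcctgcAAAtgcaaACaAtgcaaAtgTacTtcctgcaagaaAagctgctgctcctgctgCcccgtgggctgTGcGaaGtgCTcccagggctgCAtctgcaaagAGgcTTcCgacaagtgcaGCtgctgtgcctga

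The start site windows of both genes are shown with the metal response element cores TGCACNC and TGCGCNC in capitals, on either strand. There were 3 such matches in Mt1 and 4 in Mt2, and none of them overlapped another motif searched. At least 3 matches were found in 1.97% of all 32817 windows. Neither window held a full glucocorticoid response element.
Mt1 chr8:94178839-94179138 (+): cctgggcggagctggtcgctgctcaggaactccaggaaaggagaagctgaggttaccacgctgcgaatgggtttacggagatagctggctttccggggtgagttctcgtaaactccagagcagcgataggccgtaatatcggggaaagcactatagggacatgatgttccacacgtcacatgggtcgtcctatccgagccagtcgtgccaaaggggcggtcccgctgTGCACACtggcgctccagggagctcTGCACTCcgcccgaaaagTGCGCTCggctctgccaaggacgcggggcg
Mt2 chr8:94172368-94172667 (+): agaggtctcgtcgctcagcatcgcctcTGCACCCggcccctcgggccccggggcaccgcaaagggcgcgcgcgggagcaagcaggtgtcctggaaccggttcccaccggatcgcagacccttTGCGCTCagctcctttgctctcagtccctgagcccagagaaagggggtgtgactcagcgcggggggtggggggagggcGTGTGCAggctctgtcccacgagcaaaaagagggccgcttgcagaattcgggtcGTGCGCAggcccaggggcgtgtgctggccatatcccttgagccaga

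Nr3c1, the receptor gene, had 153, 145 and 151 CPM in Luc libraries, against 131, 112 and 133 CPM in Non surgery libraries. It was the only one of the 8 tested genes that rose, with a log2 difference of 0.26 ± 0.052 (SE, adjusted p = 0.00046). All Luc libraries were above all Non surgery libraries, and Non surgery replicate 2 was the lowest of the 9 libraries.

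**Figure D2:**
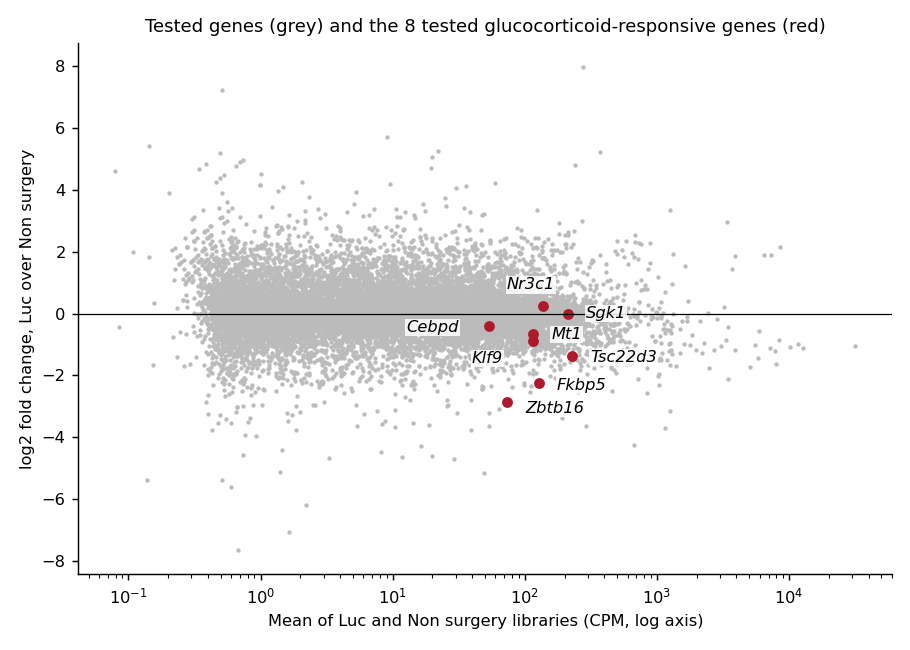
Log2 fold change of Luc over Non surgery (vertical axis) against the mean level of the libraries of both groups in CPM (horizontal log axis) for the 17478 tested genes in grey and the 8 tested glucocorticoid-responsive genes in red. Zbtb16 at -2.86 and Fkbp5 at -2.24 lie low in the cloud, and Sgk1 and Nr3c1 lie close to 0. Tsc22d3 at -1.38 has 3.3% of tested genes below it, among them Plin4 at -2.53 and Gys1 at -1.51 at a similar level.

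Muscle markers moved with these falls. All 6 muscle markers fell in Luc against Non surgery, with a median log2 fold change of -1.15 and Acta1, the skeletal muscle actin, at -1.21. Relative to the Non surgery mean, the Luc mean was 13.8% for Zbtb16, 21.2% for Fkbp5 and 38.3% for Tsc22d3, and 43.2% to 70.9% for the 6 muscle markers. These markers do not include Csrp3, Myl2 and Myoz2, genes of slow and cardiac-type muscle fibres. Their Luc means were 14.5%, 12.9% and 10.6% of the Non surgery mean, so falls below the 6 markers are not falls below all muscle genes. With libraries scaled to the summed counts of the muscle markers, a choice made after the data were seen, the median log2 fold change of all genes was 1.14, with 15488 genes called higher and 508 lower. The fast-fibre myosin gene Myh4 had the highest level of these markers, at 8047 CPM in Luc and 17560 CPM in Non surgery libraries. On the muscle-marker scale Zbtb16, Fkbp5 and Tsc22d3 were at -1.74, -1.12 and -0.27, below each of the 6 markers. Klf9, Mt1, Cebpd and Sgk1 were at 0.22, 0.47, 0.70 and 1.10, above the summed muscle markers and below the median of all genes. Nr3c1 was at 1.37. Klf9 at 53.7% and Mt1 at 63.8% of the Non surgery mean in Luc lay within the range of the single markers. Relative to the median of all genes on that scale the 8 genes ran from -2.88 for Zbtb16 to 0.23 for Nr3c1. All 6 erythroid markers also fell, with a median of -0.71, as did all 6 neutrophil markers, with a median of -0.295. Of 6 macrophage markers 4 rose and 0 fell, and of 6 fat markers 3 rose and 1 fell. All 6 markers each of cartilage, bone and of fibroblasts and synovium rose, with medians of 2.15, 1.60 and 1.72. The 6 immediate-early genes rose, with Fos at 5.24. The part of these tissues in the levels of the glucocorticoid-responsive genes was not tested beyond these values.

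The genes whose profiles over the 9 libraries were closest to each member were named by the root-mean-square difference of centred log2 CPM among 11628 named genes with at least 5 CPM. For Zbtb16 these were Csrp3, Myl2 and Myoz2, which are genes of slow and cardiac-type muscle fibres, at 0.14, 0.16 and 0.19. Their Luc means were 14.5%, 12.9% and 10.6% of the Non surgery mean, beside 13.8% for Zbtb16. None of them is among the 6 muscle markers. Csrp3 had 15.2 CPM in PC2, 9.96 CPM in Luc and 68.7 CPM in Non surgery libraries on average, the same order of groups as Zbtb16. For Fkbp5 they included Pde4d, a cAMP phosphodiesterase gene, at 0.059 and Ank3, an ankyrin gene, at 0.087. For Tsc22d3 they were Vcam1, an adhesion molecule, at 0.048, Grap2 at 0.054 and Ighd at 0.063. For Klf9 they were Bpgm, an enzyme of red cells, at 0.033, Svil at 0.036 and the platelet integrin gene Itgb3 at 0.044. The closest genes included Trip11, Akap9 and Son for Sgk1, Myod1 and Tmem147 for Cebpd, Fermt3, Ankrd33b and Tfdp2 for Mt1, and Gabpa, Vps4b and Secisbp2l for Nr3c1, at 0.035 to 0.069. All 9 libraries share 3 pools, so likeness here mostly reflects 3 group means. Within the set, Mt1 and Klf9 had the smallest difference (0.12), Fkbp5 and Zbtb16 differed by 0.30, and Zbtb16 and Nr3c1 differed most (1.35).

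**Figure D3:**
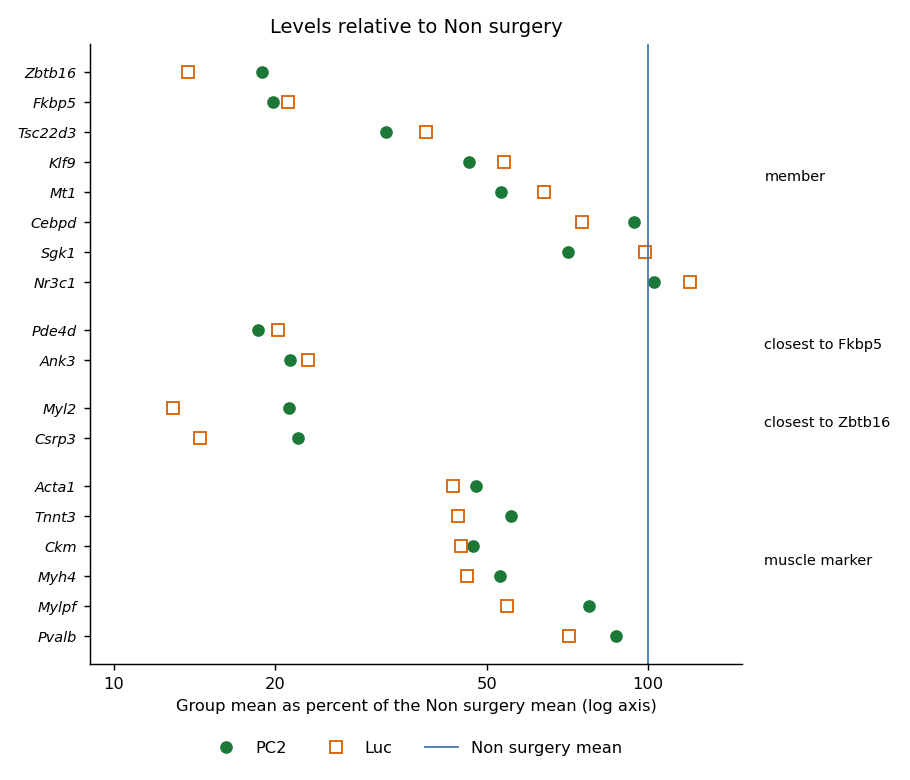
PC2 means (filled circles) and Luc means (open squares) as a percentage of the Non surgery mean (horizontal log axis; the line marks the Non surgery mean) for the 8 tested genes, the 2 genes with the profiles closest to each of Fkbp5 and Zbtb16, and 6 muscle markers. Fkbp5 at 19.8% and Zbtb16 at 18.9% in PC2 joints lie below each of the 6 muscle markers. They lie close to Csrp3 at 22.1% and Myl2 at 21.25%, muscle fibre genes that are not among those markers.

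Other genes of the pathway were read from lists written from general knowledge, with earlier results of these data known. Counts over the lists are therefore a description and no independent evidence. Of 25 other glucocorticoid-induced genes, 9 rose and 13 fell in Luc against Non surgery while 3 stayed short of the threshold. Their median log2 fold change was -0.14, beside 0.025 over all genes. Of all genes 58.8% passed, 27.7% lower and 31.1% higher, and every list count in this comparison stands beside these shares. Fam107a, a gene that glucocorticoids induce in brain, had 0.832, 0.740 and 0.808 CPM in Luc libraries, against 10.3, 9.95 and 9.79 CPM in Non surgery libraries, a 12.5-fold fall. The decoy interleukin-1 receptor gene Il1r2 and the mTOR inhibitor gene Ddit4 fell 3.89-fold and 2.81-fold. In the other direction, the phosphatase gene Dusp1 rose 5.81-fold to 361.5 ± 2.87 CPM in Luc, against 62.2 ± 0.607 CPM in Non surgery libraries. Zfp36, which encodes an mRNA-destabilising protein, rose 4.8-fold. Dusp1 and Zfp36 are also immediate-early genes, and the immediate-early list rose in the same libraries.

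Most listed muscle targets of glucocorticoids were lower. Of 10 such genes 9 fell and 0 rose, and their median log2 fold change was -1.33. Pdk4, the kinase that shuts off pyruvate oxidation and which fasting also induces, had 254, 254 and 252 CPM in Luc libraries, against 2296, 2231 and 2233 CPM in Non surgery libraries, an 8.89-fold fall. Lpin1, a phosphatidate phosphatase gene, fell 5.34-fold, and Trim63, the ubiquitin ligase MuRF1 of muscle atrophy, fell 3.78-fold. Set against Acta1, the muscle marker that fell most (-1.21), 5 of the 10 targets had lower log2 fold changes and 5 did not. Those 5, named after their values were seen, were Cdkn1a at -1.04, Mstn at -0.76, Foxo3 at -0.70, Fbxo32 at -0.57 and Foxo1 at -0.097, and Foxo1 did not pass.

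Genes of hormone supply and receptor partners had smaller changes in Luc against Non surgery, none of them called at 2-fold. Of 7 receptor and steroid metabolism genes, 6 were tested, of which 4 fell and 1 rose. The call of the gene that rose, the mineralocorticoid receptor gene Nr3c2 at 0.29, was lost in 7 of 13 other settings. Hsd11b1, whose enzyme regenerates active glucocorticoid inside cells, fell 1.74-fold to 26.1 ± 0.922 CPM in Luc, against 45.4 ± 0.7 CPM in Non surgery libraries (SD, n = 3 each). Of 11 receptor chaperones, 5 fell and 2 rose, with Hspa8 at -0.42 and Dnaja1 at 0.48. Of 10 coregulators, 6 fell and 2 rose, with the corepressor gene Nrip1 at -0.68 and the remodelling ATPase gene Smarca4 at 0.41.

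Relatives of the members moved in both directions. Of 10 C/EBP and Krüppel-like genes, 5 fell and 4 rose: Klf15, itself a glucocorticoid target, fell 3.52-fold, and Klf4 and Klf2 rose 4.4-fold and 2.84-fold. The call of Cebpb at -0.35 was lost in 7 of 13 other settings. Of 12 relatives of Fkbp5, Tsc22d3, Zbtb16 and Sgk1, 4 fell and 5 rose, with Fkbp10, a collagen-folding isomerase gene, up 3.84-fold. Of 8 metal-responsive and metallothionein genes, 7 were tested, of which 2 fell and 2 rose. Mt3 rose 4.32-fold to 10.2 ± 0.442 CPM in Luc, against 2.34 ± 0.265 CPM in Non surgery libraries, and Hmox1, the heme oxygenase gene, fell 3.07-fold. Mt4 had 0 counts in all 9 libraries.

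**Figure D4:**
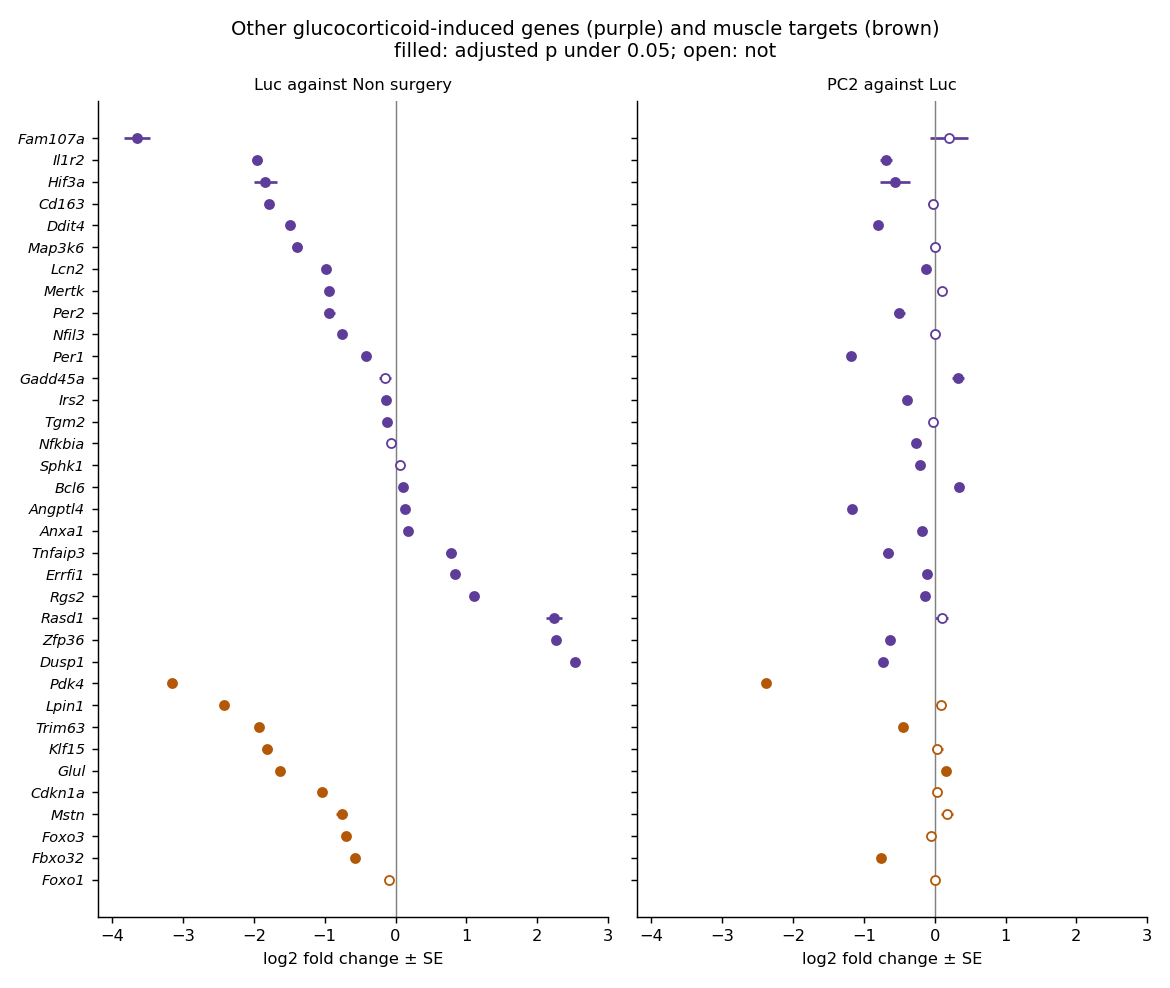
Log2 fold changes with their standard errors (horizontal axes, equal range) of 25 other glucocorticoid-induced genes in purple and 10 muscle targets in brown, for Luc against Non surgery on the left and PC2 against Luc on the right; filled points passed an adjusted p of 0.05. Fam107a at -3.64 and Pdk4 at -3.15 are the lowest on the left, Dusp1 at 2.54 is the highest there, and Pdk4 at -2.38 is the lowest on the right.

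The comparison of PC2 with Luc joints addressed how operated joints with the PC2 virus differed from those with the control Luc virus. Each side was 1 pool, so an effect of the virus cannot be told apart from differences between the mice of the pools. Sgk1 was 1.39-fold lower in PC2 libraries, and Tsc22d3, Mt1, Klf9 and Nr3c1 were lower by 1.16-fold to 1.21-fold. Zbtb16 and Cebpd were higher, by 1.38-fold and 1.25-fold. Of the 8 tested genes 7 passed, 5 of them lower and 2 higher, beside 34.7% of all genes that passed, 18.6% lower and 16.1% higher. The PC2 and Luc libraries did not overlap for 7 of the 8 genes, beside 48% of all genes. None of the 8 was called at 2-fold, a size that 3.31% of all genes reached, 2% lower. The median log2 fold change was -0.22 for the 8 genes and 0.008 for all genes.

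Sgk1 had 148.6, 151 and 152 CPM in PC2 libraries, against the 205 to 216 CPM of the Luc libraries. The groups lay well apart, and the log2 fold change was -0.48 ± 0.033 (SE, adjusted p = 1.53e-08). Zbtb16 had 23.4, 24.4 and 25.7 CPM in PC2 libraries, against 15.6 to 21.4 CPM in Luc libraries, a log2 difference of 0.46 ± 0.09 (SE, adjusted p = 0.000892). The groups did not overlap, and the PC2 libraries stayed far below the 123 to 137 CPM of the Non surgery libraries. Markers of several tissues were also higher in PC2 than in Luc libraries. Of the 6 muscle markers 5 rose, with a median of 0.25. All 6 fat markers rose, with a median of 1.32 and a summed level of 458 to 468 CPM in PC2, against 216 to 236 CPM in Luc libraries. All 6 cartilage markers rose, with a median of 0.64 and a summed level of 6715 to 6830 CPM in PC2, against 4304 to 4381 CPM in Luc libraries, and 5 of 6 bone markers rose, with a median of 0.33. Their part in the changes of the glucocorticoid-responsive genes was not tested. With libraries scaled to the muscle markers, the median of all genes was -0.20, and Zbtb16 was at 0.25. Cebpd had 61.5, 54.6 and 57.7 CPM in PC2 libraries, against 44.6 to 48.6 CPM in Luc libraries, a log2 difference of 0.33 ± 0.066 (SE, adjusted p = 0.00114). With libraries scaled to the muscle markers it was at 0.11 (adjusted p = 0.17), which did not pass, and 0.32 above the median of all genes on that scale.

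Fkbp5 had 38.4, 43.5 and 43.6 CPM in PC2 libraries and overlapped with the 43.2 to 45.8 CPM of the Luc libraries, with a log2 difference of -0.095 ± 0.05 (SE, adjusted p = 0.156). With libraries scaled to the muscle markers it passed at -0.31 (adjusted p = 0.000229), which is -0.10 relative to the median of all genes on that scale. Tsc22d3 had 107, 105 and 109 CPM in PC2 libraries, all below the lowest Luc library. Its log2 fold change was -0.25 ± 0.032 (SE, adjusted p = 1.93e-05). Mt1 had 75.0, 74.8 and 74.2 CPM, Klf9 had 68.1, 69.3 and 71.6 CPM, and Nr3c1 had 131, 125 and 128 CPM in PC2 libraries. Each of these 3 genes was lower in every PC2 than in any Luc library, with log2 fold changes of -0.27, -0.22 and -0.22.

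**Figure D5:**
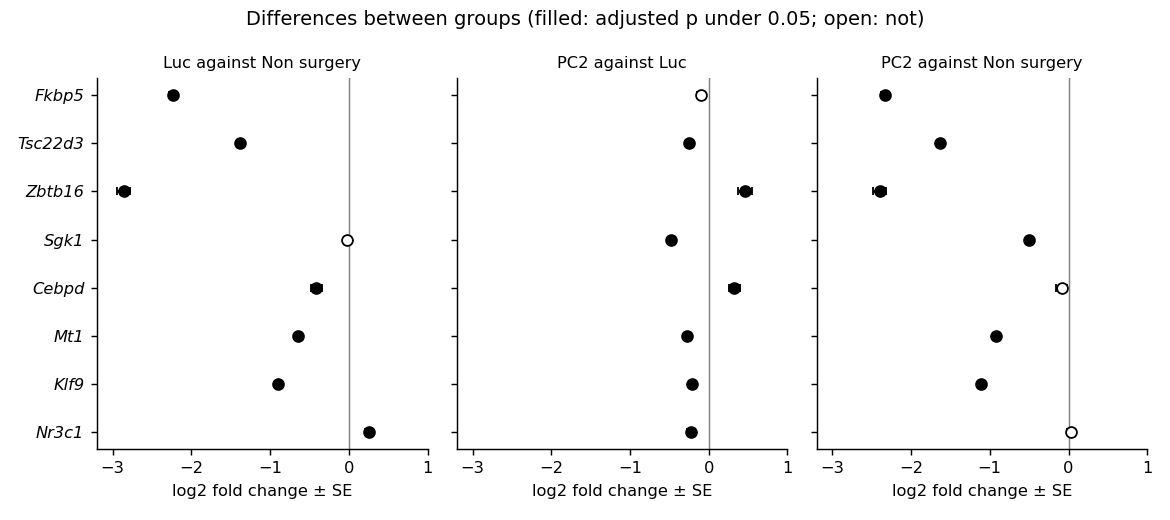
Log2 fold changes with their standard errors (horizontal axes) of the 8 tested genes in Luc against Non surgery, PC2 against Luc and PC2 against Non surgery; filled points passed an adjusted p of 0.05. The changes of PC2 against Luc lie between -0.48 and 0.46, and those of the other comparisons reach -2.86 and -2.40.

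Of the 25 other glucocorticoid-induced genes, 16 fell and 2 rose in PC2 against Luc, and the median log2 fold change was -0.18. Of all genes 34.7% passed, 18.6% lower and 16.1% higher, and every list count in this comparison stands beside these shares. The clock gene Per1 had 43.1, 42.3 and 42.9 CPM in PC2 libraries, against 93.4, 94.9 and 101.3 CPM in Luc libraries, a 2.26-fold fall. Angptl4, a lipase inhibitor gene that fasting and PPAR ligands also induce, fell 2.24-fold and Ddit4 fell 1.74-fold. Dusp1 and Zfp36 fell 1.66-fold and 1.54-fold, and all 6 immediate-early genes fell in the same libraries, with Fos 2.07-fold lower. Of the 10 muscle targets, 3 fell and 1 rose. Pdk4 fell 5.22-fold to 48.5 ± 2.28 CPM in PC2, against 253 ± 1.25 CPM in Luc libraries (SD, n = 3 each), and the ubiquitin ligase genes Fbxo32 and Trim63 fell 1.69-fold and 1.36-fold while muscle markers rose. Hsd11b1 fell 1.18-fold and was the only one of the 6 tested receptor and metabolism genes that passed. Of 11 chaperones 1 fell and 3 rose, and of 10 coregulators 6 fell and 0 rose, with Ncor1 at -0.38. Of 10 C/EBP and Krüppel-like genes 3 fell and 1, Cebpa at 0.52, rose. Of 12 relatives of the members 2 fell and 6 rose, and of 7 metal-responsive genes 3 fell and 1 rose. Several of these calls were close to the threshold: out of 13 other settings, Hif3a lost its call in 11, Nrip1 in 8, Cebpb in 6 and Klf4 in 5, all of them lower in PC2. Among the 4 metal-responsive calls, Hmox1 lost its call in 8, Slc30a1 in 6 and Mtf1, the gene that rose, in 7.

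PC2 joints were also set against Non surgery joints, which shows where operated joints with PC2 stood relative to the unoperated state. This comparison shares its libraries with the others and is no independent evidence. Fkbp5, Zbtb16, Tsc22d3 and Klf9 were lower in PC2 libraries, by 5.04-fold, 5.28-fold, 3.1-fold and 2.16-fold. Mt1 and Sgk1 were lower by 1.89-fold and 1.41-fold. In all, 6 of the 8 tested genes fell and 0 rose, beside 62.7% of all genes that passed, 31.2% lower and 31.5% higher. The PC2 and Non surgery libraries did not overlap for 6 of the 8 genes, beside 66% of all genes. A change of at least 2-fold was called in 4 of the 8, all falls, beside 16.4% of all genes in either direction and 6.53% lower. With library size only, 7607 genes were called higher and 3761 lower, where TMM called 5505 higher and 5447 lower. Cebpd had -0.088 ± 0.066 (SE, adjusted p = 0.256) and Nr3c1 0.035 ± 0.052 (SE, adjusted p = 0.584), and for both genes the libraries of the groups overlapped. The sign of neither was stable: Cebpd was at 0.070 with library size only, and Nr3c1 at -0.041 without Non surgery replicate 2. Without Non surgery replicate 3, Cebpd passed at -0.16 (adjusted p = 0.0302), and with library size only, Nr3c1 passed at 0.19 (adjusted p = 0.00353). With libraries scaled to the muscle markers the median of all genes was 0.91, with 14625 genes called higher and 742 lower. On that scale Sgk1 was at 0.41, Cebpd at 0.82, Nr3c1 at 0.94, Klf9 at -0.21 and Mt1 at -0.013 (adjusted p = 0.799 for Mt1), which relative to that median is -0.51, -0.097, 0.025, -1.12 and -0.93. Of the 25 other glucocorticoid-induced genes 16 fell and 6 rose, and of the 10 muscle targets 9 fell and 0 rose, with Pdk4 46.4-fold lower. Of the 6 tested receptor and steroid metabolism genes 3 fell and 2 rose, 1 in each direction at 2-fold, and Hsd11b1 was 2.05-fold lower.

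Per kilobase of exon, which allows levels of different genes to be compared, Mt1 was the most abundant member in every group, at 59.9 RPKM in PC2, 72.3 RPKM in Luc and 113 RPKM in Non surgery libraries (RPKM, counts per kilobase of exon scaled to library size). In Non surgery joints it was followed by Tsc22d3 at 76.2, Sgk1 at 43.4, Klf9 at 31.3, Zbtb16 at 24.5, Fkbp5 at 22.3, Cebpd at 16.4 and Nr3c1 at 16.3 RPKM, and only the last 2 overlapped between libraries. In Luc joints Sgk1 at 42.9 RPKM stood above Tsc22d3 at 29.2 RPKM, Nr3c1 at 19.5 RPKM stood above Klf9 at 16.8 RPKM, and Fkbp5 at 4.72 and Zbtb16 at 3.37 RPKM came last before Mt2. In PC2 joints the order was Sgk1 at 30.8, Tsc22d3 at 24.6, Nr3c1 at 16.7, Cebpd at 15.5, Klf9 at 14.5, Zbtb16 at 4.63 and Fkbp5 at 4.42 RPKM. There Nr3c1 overlapped with Cebpd, Cebpd with Klf9, and Zbtb16 with Fkbp5.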

How the data were processed

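RNA-seq was done on 9 libraries, 3 technical repeats of 1 RNA pool in each of 3 groups. Each deposited file holds the raw counts of 1 library by Ensembl gene ID. The submitters' processing notes name HISAT2, HTSeq, DESeq2 and mm10, with no versions. Annotation release and strand setting: not given in the sources used here. Reads outside genes (7.29% to 9.25%) and unassignable reads (5.72% to 6.65%) stayed out of library sizes. Within groups, libraries differed by more than counting noise (chi-square per degree of freedom 3.94 to 8.68). Symbols and exon lengths came from GENCODE M21 (GRCm38), and start site sequences from RefSeq (GRCm38.p6).

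All 9 libraries entered 1 edgeR 4.0.16 quasi-likelihood fit (R 4.3.3) with TMM factors and filterByExpr (minimum count 10). Tests were two-sided, with Benjamini-Hochberg adjustment over all 17478 tested genes, and a gene rose or fell at an adjusted p under 0.05. CPM and RPKM use TMM-scaled library sizes. RPKM divides by exon bases merged over all transcripts of a gene. For Mt1 these fill the whole gene (1246 bases), so its RPKM may be understated. The fit was tested on simulated counts. The members and lists were chosen with earlier results of these data known. Named are all members, up to 3 genes per list and comparison with the largest change, and the 3 genes closest to a member; some genes these rules name are not reported here. DESeq2 1.42.0 was an alternative.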

Additional observations from a re-analysis of the deposited data

How the results depend on the processing

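Under 13 other settings per comparison, 307 of 312 values of the glucocorticoid-responsive genes kept their direction and their side of the threshold. The exceptions, in PC2 against Non surgery, were Cebpd with library size only (0.070) and without Non surgery replicate 3 (-0.16), and Nr3c1 with library size only (0.19) and without Non surgery replicate 2 (-0.041, where leaving out single libraries ranged to 0.075). In Luc against Non surgery the exception was Sgk1 with library size only (0.14). The count of called members was 7 in Luc against Non surgery, 7 in PC2 against Luc and 6 in PC2 against Non surgery, also with the DESeq2 Wald test; library size only gave 8, 7 and 7. Leaving out 1 library gave 7 to 7, 7 to 7 and 6 to 7 in these comparisons, and 9552 to 9880, 4921 to 5328 and 10239 to 10672 called genes.

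Of 1911 values of other named genes 1809 kept direction and side, 77 no longer passed, 9 newly passed and 16 changed sign. With library size only, Fkbp4 turned to 0.0089 and Slc30a1 to 0.011 in PC2 against Non surgery. With median-of-ratios factors, Bag1 turned to -0.00097 there. The other changes of sign came from leaving out single libraries of genes that had not passed. Over these, values ran from -0.0086 to 0.035 for Bag1 and -0.033 to 0.080 for Zbtb7b in PC2 against Non surgery. They ran from -0.0015 to 0.11 for Cebpa and -0.019 to 0.11 for Slc30a1 in Luc against Non surgery. In PC2 against Luc they ran from -0.014 to 0.033 for Dnaja1, -0.034 to 0.40 for Fam107a and -0.069 to 0.062 for Mt3.

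With libraries scaled to muscle markers, an alternative added after the data were seen, the median of all genes moved to 1.14 in Luc against Non surgery, -0.20 in PC2 against Luc and 0.91 in PC2 against Non surgery. Members that changed sign with it were Cebpd (0.70), Klf9 (0.22), Mt1 (0.47) and Sgk1 (1.10) in Luc against Non surgery, and Cebpd (0.82) and Sgk1 (0.41) in PC2 against Non surgery, and each of them stayed below that median. The cause of the other changes was not tested.

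Same-numbered libraries did not deviate together (r between -0.027 and 0.057 in 9 pairs), so the numbers were taken to name repeats only, although 6 of 9 libraries correlated best with a library of their own number. With the replicate block 7, 7 and 6 members and 10327, 6192 and 11019 genes were called. Technical repeats of 1 pool limit every test here, and the data hold no measure of differences between mice. Mt2, at 0 to 5 counts, had too few counts for a comparison, and whether its overlap with Gm45774 on the opposite strand lowered them was not tested.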
